A study of Mus musculus with 25 samples.

Results

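The genes described here are the mouse zinc finger genes numbered Zfp900 to Zfp999, most of which lie side by side in a few chromosomal clusters. Members were the protein-coding genes with a symbol in this range and a mean of at least 1 read over the 25 libraries, and 56 of the 55375 genes in the table met this rule. The table held 64 symbols of the range, of which 63 were protein-coding and 1, Zfp939, a transcribed pseudogene. The 7 protein-coding genes below the minimum were Zfp935 on chromosome 13 and Zfp965, Zfp966, Zfp967, Zfp968, Zfp969 and Zfp973 on chromosome 2, whose totals over all libraries ran from 0 to 17 reads. Neighbouring members up to 2000000 bases apart were joined, and 37 of the 56 then fell into 5 clusters of at least 3 members. Chromosome 4 held 16 members between positions 145510759 and 147848366 of mm10, a span of 2.34 Mb, and chromosome 17 held 10 between 21567008 and 22867134, a span of 1.3 Mb. Chromosomes 2, 7 and 8 held 4, 4 and 3 members within 0.61, 0.61 and 0.54 Mb, and 19 members were scattered.

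Zinc finger proteins of the KRAB class bind DNA through arrays of C2H2 fingers and recruit the corepressor TRIM28 (KAP1). TRIM28 brings in SETDB1, which trimethylates H3K9, and many of these proteins silence retrotransposons in early embryos and stem cells. Their genes multiplied by tandem duplication, and in somatic cells such clusters are themselves known to carry H3K9me3. A Zfp symbol alone does not show that a protein has a KRAB box, and protein sequences were not analysed here.

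The study asked how removal of H3K9 methylation changes mouse embryos cloned by somatic cell nuclear transfer (SCNT), in which the nucleus of a cumulus cell replaces that of the oocyte. RNA came from pools of late two-cell embryos. IVF embryos (4 libraries) came from B6N oocytes and DBA/2 sperm, a cross that the methods describe as a BDF1 background. Oocytes and cumulus nuclei of all SCNT embryos were BDF1. The oocyte strain and the way the embryo was made thus changed together. IVF embryos included both sexes, whereas all SCNT embryos were female. SCNT embryos made with cytochalasin B received no mRNA (control SCNT) or mRNA of Kdm3a or Kdm4d, which encode demethylases of H3K9me1/2 and of H3K9me2/3 (2 libraries each). Those made with latrunculin A were left untreated (CC_cont, 2 libraries) or were kept for 8 h in 25 nM trichostatin A (TSA), which inhibits histone deacetylases (2 libraries, CC_T). Others received an inhibitor of G9a, the main H3K9me1/2 methyltransferase of euchromatin, at 1 µM for 24 h (CC_G), either RK-701 (3 libraries, R701 in the labels) or A366 (2 libraries). In the CC_TG groups TSA was joined by 1 of RK-701, A366 and UNC0638 (2 libraries each). UNC0638 without TSA was not analysed here. Each library is a pool of its own, but nothing states that pools came from separate days, so p-values measure the spread between these libraries.

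Promoters of the chromosome 7 cluster are shown because its members resemble each other there and its 2 abundant genes rose together. Each sequence runs from 250 bases before to 50 bases after the gene start that RefSeq gives on GRCm38.p6, 5′ to 3′. They lie at chr7:42592496-42592795 on the minus strand (Zfp977), chr7:43177340-43177639 on the plus strand (Zfp936) and chr7:42642555-42642854 on the minus strand (Zfp976). Capitals mark bases that differ from the aligned base of Zfp977 or have no counterpart there.
Zfp977: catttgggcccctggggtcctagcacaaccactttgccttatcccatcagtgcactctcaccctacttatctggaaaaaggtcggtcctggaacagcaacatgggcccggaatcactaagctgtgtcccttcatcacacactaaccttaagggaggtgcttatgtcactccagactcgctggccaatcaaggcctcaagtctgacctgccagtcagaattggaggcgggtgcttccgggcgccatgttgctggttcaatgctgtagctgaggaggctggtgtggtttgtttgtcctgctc
Zfp936: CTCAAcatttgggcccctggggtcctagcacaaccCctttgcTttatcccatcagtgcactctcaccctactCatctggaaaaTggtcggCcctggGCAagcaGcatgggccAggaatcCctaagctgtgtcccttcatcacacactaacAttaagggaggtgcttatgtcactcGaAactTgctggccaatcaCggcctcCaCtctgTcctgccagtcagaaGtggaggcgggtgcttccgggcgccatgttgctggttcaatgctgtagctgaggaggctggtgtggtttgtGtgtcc
Zfp976: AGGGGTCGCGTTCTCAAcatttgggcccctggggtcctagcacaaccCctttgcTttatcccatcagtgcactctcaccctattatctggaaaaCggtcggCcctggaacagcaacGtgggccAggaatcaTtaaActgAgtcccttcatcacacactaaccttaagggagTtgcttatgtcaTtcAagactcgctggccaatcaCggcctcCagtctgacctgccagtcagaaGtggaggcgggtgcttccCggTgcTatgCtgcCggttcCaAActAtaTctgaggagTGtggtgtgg
Zfp936 was identical to Zfp977 over 91.3% of the 300 bases and Zfp976 over 85.3%. A copy of RLTR48B, an LTR of the ERV1 class, reached into these windows by 22 bases for Zfp977, 27 for Zfp936 and 39 for Zfp976. Of the 32851 promoter windows of all genes, 5 touched a copy of this LTR. Any transposable element was touched by 8.81% of all windows, and by windows of 6 of the 47 members found in the RefSeq table (12.8%).

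On chromosome 4, similar promoters were found for a gene called in several comparisons and a gene called in no comparison. Zfp987, at chr4:146097062-146097361 on the plus strand, and Zfp985, at chr4:147553027-147553326 on the plus strand, are shown for this, with capitals where Zfp985 differs from Zfp987 or has no counterpart in it.
Zfp987: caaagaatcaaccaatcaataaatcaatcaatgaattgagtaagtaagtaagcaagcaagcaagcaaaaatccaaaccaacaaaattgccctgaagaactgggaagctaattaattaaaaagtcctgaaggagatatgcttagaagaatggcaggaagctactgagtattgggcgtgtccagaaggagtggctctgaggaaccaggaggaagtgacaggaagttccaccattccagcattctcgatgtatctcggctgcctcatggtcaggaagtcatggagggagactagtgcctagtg
Zfp985: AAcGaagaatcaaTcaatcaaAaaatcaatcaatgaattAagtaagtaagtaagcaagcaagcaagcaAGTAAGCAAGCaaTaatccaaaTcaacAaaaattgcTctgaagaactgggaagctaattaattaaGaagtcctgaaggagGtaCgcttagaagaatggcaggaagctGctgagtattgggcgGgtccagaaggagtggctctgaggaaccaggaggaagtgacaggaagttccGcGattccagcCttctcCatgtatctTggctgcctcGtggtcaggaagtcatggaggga
The windows were identical over 89.3% of their bases. Zfp987 was called in several of the 21 comparisons and Zfp985 in 0, but the difference between the genes was not tested. Against control SCNT, Zfp985 differed by 1.05 with Kdm3a and 1.12 with Kdm4d on the log2 scale, and Zfp987 by 0.62 and 2.15. The median identity was 80.8% over the 6 pairs of chromosome 7 and 80.7% over the 6 pairs of chromosome 2. It was 59.3% over the 45 pairs of chromosome 4 and 58.7% over 842 pairs from different clusters. The chromosome 4 pairs ran from 52.7% to 91.3%, and pairs from different clusters reached at most 72.3%. All pairs among Zfp979, Zfp980, Zfp981, Zfp984, Zfp985, Zfp987 and Zfp988 lay above the chromosome 4 median. Pairs at or below it all held Zfp933, Zfp982 or Zfp993. Zfp980 and Zfp979 on chromosome 4 and Zfp942 and Zfp944 on chromosome 17 were as alike as Zfp977 and Zfp936, at 91.3%.

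Levels between genes are given as TPM, which is per gene length. The mean TPM over all libraries ran from 0.318 (Zfp945) to 531 (Zfp982) with a median of 15.3, and 30 members were at 10 or above, 23 between 1 and 10 and 3 below 1. Zfp982, Zfp979 (343), Zfp936 (261), Zfp942 (213) and Zfp978 (177) led and made up 44.8% of the members' summed TPM. Of these, Zfp982, Zfp979 and Zfp978 lie on chromosome 4, Zfp936 on chromosome 7 and Zfp942 on chromosome 17. The highest on chromosome 8 was Zfp930 (95.1) and on chromosome 2 Zfp931 (9.38). Reads were found in all 25 libraries for 52 of the 56.

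**Figure D1:**
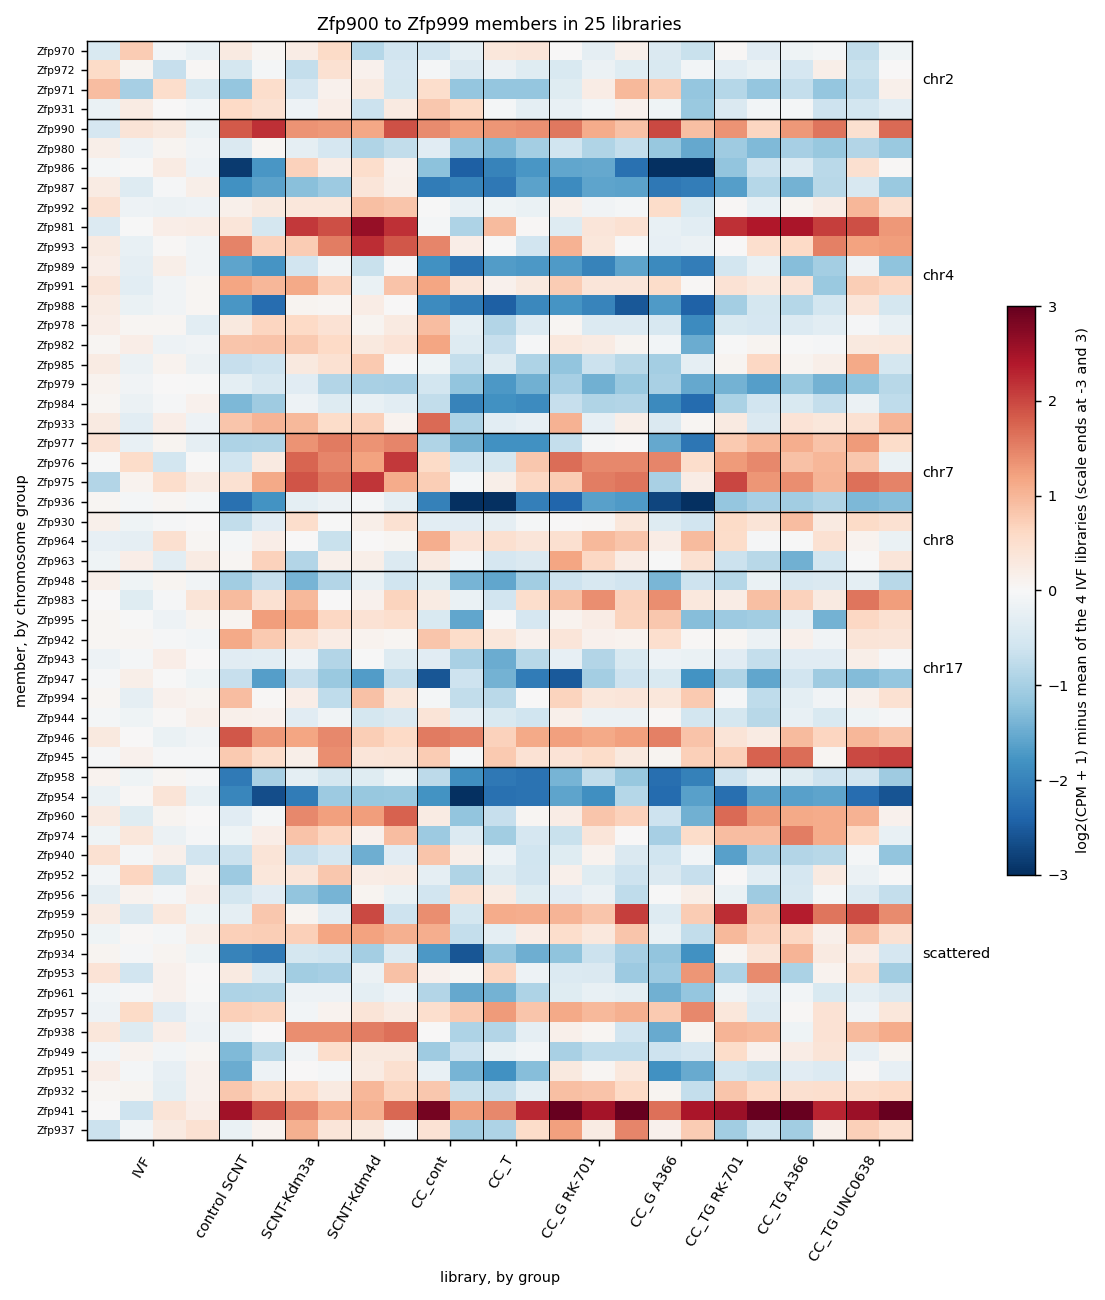
Colours give log2(CPM + 1) of each of the 56 members (lines, by chromosome group) in each of the 25 libraries (columns, by group) minus the mean of the 4 IVF libraries, on a scale from -3 to 3. Zfp981 is red in the Kdm3a, Kdm4d and CC_TG libraries, Zfp936 is blue in control SCNT and CC_cont, and Zfp941 is red in the SCNT libraries.

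The summed level of the chromosome 7 cluster differed between groups, and nearly all of it came from Zfp936 and Zfp977 (means of 526 and 143 TPM in IVF). The other members were scarce, Zfp976 having means of 0.821 TPM in IVF and 0.776 in control SCNT, and Zfp975 2.06 and 4.52. The 4 members summed to 620 to 747 TPM in IVF, 240 to 254 in control SCNT and 124 to 243 in CC_cont. The sum was 735 to 781 in SCNT-Kdm3a, 743 to 795 in SCNT-Kdm4d and 405 to 533 in the 6 CC_TG libraries. The Kdm3a, Kdm4d and CC_TG libraries did not overlap control SCNT or CC_cont in these sums. The CC_T (117 and 190 TPM), A366-alone (149 and 113) and RK-701-alone libraries (233, 368 and 375) reached into or below the range of the untreated SCNT libraries, except RK-701 replicates 2 and 3. The chromosome 4 sum did overlap, at 2075 to 2371 TPM in control SCNT and 1642 to 2080 over the Kdm3a and Kdm4d libraries. Like the marker sums below, all these sums carry no TMM scaling between libraries, and their differences were not tested. Zfp982 of chromosome 4 had means of 927 TPM in control SCNT and 632 in SCNT-Kdm3a, but 426 and 385 in TMM-scaled CPM. A lower TPM sum is thus no sign that the cluster fell. Chromosome 8 lay between 77.3 and 159 TPM and chromosome 2 between 5.65 and 25.0 over all libraries.

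Reads on genes numbered 6662727 to 21188688 per library. The members took 0.374% to 0.445% of them in the IVF, control SCNT, Kdm3a and Kdm4d libraries and 0.211% to 0.264% in the CC_T and A366-alone libraries. The 2 CC_cont libraries stood apart from each other, at 0.419% (replicate 1) and 0.248% (replicate 2). Of 12 cumulus cell markers, 1 to 4 were at 0 in each group, and their sum was 42.7 to 121 TPM. The sum of 6 two-cell markers was 249 to 1417 TPM and that of 7 autosomal oocyte markers 845 to 2993 TPM, and both moved with several comparisons, as given beside them. Only uniquely aligned reads were counted, and a median of 96.5% of the 100-base windows of a member's transcripts were found in no other gene's transcript. This share was under 80% for 15 members, 11 of them on chromosome 4, and was 28.1% for Zfp993, 29.2% for Zfp987, 30.0% for Zfp986 and 31.7% for Zfp960, so these levels rest on part of the gene's length.

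Untreated SCNT embryos differed from IVF embryos in both directions, but only the lower calls stood well above the share of all genes. A member was called when edgeR's adjusted p over all 25794 genes tested was under 0.05 and the fold over 2. In control SCNT 10 members were lower and 5 higher than in IVF, against 6.82% and 8.17% of all genes. In CC_cont 11 were lower and 3 higher, against 6.48% and 8.83%. Without CC_cont replicate 2 the CC_cont counts were 8 lower and 9 higher, and without its replicate 1 they were 17 and 3. The lower calls are 17.9% and 19.6% of the members, and the higher calls 8.93% and 5.36%, near or below the share of all genes. The median member differed by -0.10 and -0.35 on the log2 scale and the median of all genes by 0.01 and 0.04. Oocyte markers summed to 2457 to 2993 TPM in IVF, 1380 to 1455 in control SCNT and 1201 to 1212 in CC_cont, and two-cell markers to 1040 to 1224, 751 to 815 and 408 to 631. Their part in these differences was not tested. In pooled embryos, a lower level in every embryo and fewer embryos with the transcript cannot be told apart.

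Zfp934, a scattered member, had 58.3, 54.2, 58.2 and 50.8 CPM (read counts scaled to library size with TMM factors) in IVF, 13.1 and 11.9 in control SCNT and 16.1 and 8.56 in CC_cont. Neither untreated group overlapped IVF, with log2 differences of -2.15 ± 0.30 (SE, edgeR adjusted p = 8.3e-06) and -2.15 ± 0.30 (adjusted p = 7.8e-06). Zfp988 had 142, 103, 110.5 and 124 CPM in IVF, 35.0 and 23.5 in control SCNT and 31.4 and 26.9 in CC_cont (log2 difference -2.04 ± 0.28 and -2.04 ± 0.28). Zfp936 had 664, 604, 659 and 609.5 CPM in IVF, 134 and 182 in control SCNT and 156 and 48.2 in CC_cont (log2 difference -2.005 ± 0.32 and -2.63 ± 0.34). Again no untreated library reached the lowest IVF library. Zfp954, Zfp958, Zfp984, Zfp986, Zfp987 and Zfp989 were also lower in both. Zfp977 and Zfp961 were called lower in CC_cont and Zfp949 in control SCNT. In CC_cont the calls of Zfp958, Zfp984, Zfp986, Zfp977 and Zfp961 ended without its replicate 2, and in control SCNT that of Zfp989 ended without control SCNT replicate 2 and those of Zfp958 and Zfp949 without control SCNT replicate 1.

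Zfp946, Zfp941 and Zfp990 were higher in both. Zfp946, on chromosome 17, had 45.0, 37.2, 31.6 and 34.1 CPM in IVF, 136 and 92.1 in control SCNT and 110.3 and 105 in CC_cont (log2 difference 1.63 ± 0.19 and 1.55 ± 0.19). Zfp941 had 2.02, 0.932, 2.92 and 2.44 CPM in IVF, 16.1 and 10.1 in control SCNT and 20.9 and 6.05 in CC_cont (log2 difference 2.65 ± 0.46 and 2.71 ± 0.45). It lay at 5.24 to 36.8 CPM in the treated SCNT libraries, all above IVF. The methods give an alignment setting that allowed no mismatch. Strain differences of the oocyte in alignable reads, the sex of the embryos and nuclear transfer cannot be told apart in any comparison with IVF. Comparisons among SCNT groups share 1 genotype and 1 sex.

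With Kdm3a and Kdm4d mRNA 11 members each were called higher than in control SCNT and 0 lower. Of all genes, 2.38% (Kdm3a) and 2.11% (Kdm4d) were called higher and 1.78% and 1.04% lower, against 19.6% of the members higher in both. The median member differed by 0.20 and 0.42 on the log2 scale and the median of all genes by -0.04 and -0.04. The comparisons share the control libraries. Zfp977, Zfp988, Zfp981, Zfp949, Zfp986, Zfp936, Zfp934, Zfp960, Zfp938 and Zfp958 were called in both, Zfp989 with Kdm3a and Zfp987 with Kdm4d. In either direction, 20 and 26 members had an unadjusted p under 0.05, as did 5193 and 4823 of all 25794 genes. Some members had an adjusted p under 0.05 but stayed below a fold of 2. Of these, Zfp942 was lower with both mRNAs and Zfp946 with Kdm4d, and Zfp930, Zfp961 and Zfp984 were higher with both. The calls of Zfp938 in both comparisons and of Zfp989 ended without any 1 of the 4 libraries compared, and those of Zfp958 without 3 of the 4, with DESeq2 not calling Zfp958 for Kdm3a. The calls of Zfp960 ended without control SCNT replicate 1 or 1 of the treated libraries, and those of Zfp934 and, with Kdm4d, of Zfp949 and Zfp986 without control SCNT replicate 1. The call of Zfp934 with Kdm4d also ended without SCNT-Kdm4d replicate 2, and that of Zfp949 with Kdm3a without SCNT-Kdm3a replicate 2. Two-cell markers summed to 751 to 815 TPM in control SCNT, 1116 to 1377 in SCNT-Kdm3a and 676 to 755 in SCNT-Kdm4d, and oocyte markers to 1380 to 1455, 1055 to 1443 and 1738 to 2126. Their part in these differences was not tested.

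Zfp977 had 38.2 and 39.0 CPM in control SCNT, 188 and 217 in SCNT-Kdm3a and 188 and 204 in SCNT-Kdm4d. All 4 treated libraries stood above control SCNT and above IVF (98.9, 62.5, 77.6 and 61.0), with log2 differences from control SCNT of 2.39 ± 0.28 (adjusted p = 1.0e-05) and 2.34 ± 0.28 (adjusted p = 2.7e-05). Zfp936 had 134 and 182 CPM in control SCNT, 519 and 564 in SCNT-Kdm3a and 607 and 521 in SCNT-Kdm4d (log2 difference 1.78 ± 0.35 and 1.84 ± 0.35). Both calls of Zfp936 ended without control SCNT replicate 1. The other 2 members of the cluster are scarcer and were not called. Zfp976 had 0.581 and 1.91 CPM in control SCNT, 7.12 and 5.64 in SCNT-Kdm3a and 4.60 and 9.40 in SCNT-Kdm4d, with adjusted p of 0.059 and 0.051. Zfp975 had 4.65 and 8.05 CPM, 14.4 and 11.6, and 17.3 and 7.99 in the same groups, with adjusted p of 0.28 and 0.32.

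**Figure D2:**
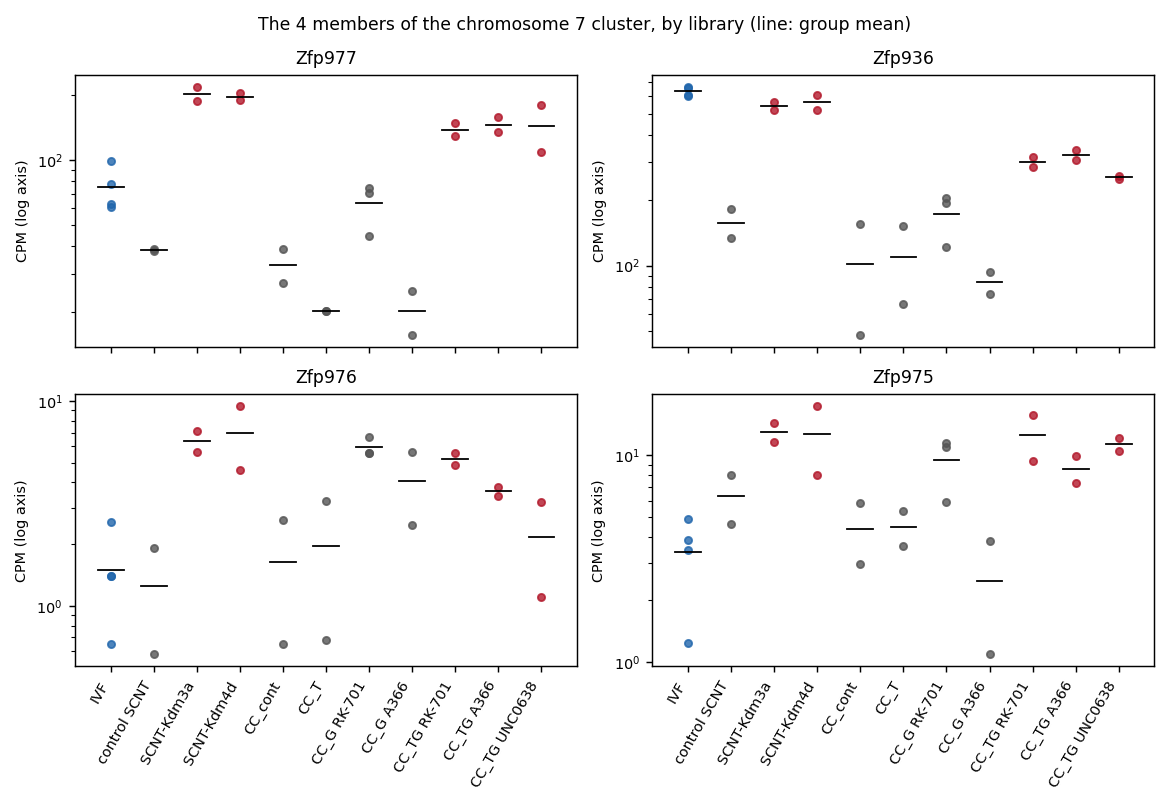
CPM on a log axis of the 4 chromosome 7 members in each library (points) with the group mean (line), for 11 groups. Zfp977 and Zfp936 are higher in every Kdm3a, Kdm4d and CC_TG library than in the control SCNT, CC_cont and A366-alone libraries.

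On chromosome 4, 4 of the 16 members were called with each mRNA, all higher. Zfp981 had 94.4 and 50.7 CPM in control SCNT, 319 and 283 in SCNT-Kdm3a and 453 and 338 in SCNT-Kdm4d (log2 difference 2.05 ± 0.34 and 2.45 ± 0.34). The treated libraries stood above IVF as well, where Zfp981 had 54.3, 72.2, 84.5 and 85.8 CPM. Zfp988 had 127 and 124 CPM in SCNT-Kdm3a and 139.8 and 119 in SCNT-Kdm4d, within its IVF range (log2 difference from control SCNT 2.10 ± 0.31 and 2.15 ± 0.31). The calls of Zfp977, Zfp981 and Zfp988 held whichever library of the compared groups was left out. Zfp986 had 8.06, 8.39, 10.2 and 7.53 CPM in IVF, 0.290 and 1.83 in control SCNT, 14.5 and 10.1 in SCNT-Kdm3a and 12.8 and 9.33 in SCNT-Kdm4d.

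Zfp987 had 5.04 and 5.90 CPM in control SCNT, 7.86 and 8.98 in SCNT-Kdm3a and 26.4 and 22.3 in SCNT-Kdm4d. Its log2 difference was 0.62 ± 0.36 (adjusted p = 0.35) with Kdm3a and 2.15 ± 0.37 (adjusted p = 0.0011) with Kdm4d, and the difference between the mRNAs was not tested. Zfp985, with the similar promoter, had 21.5 and 22.6 CPM in control SCNT, 43.0 and 48.6 in SCNT-Kdm3a and 61.0 and 34.8 in SCNT-Kdm4d, with adjusted p of 0.10 and 0.089. The most abundant members of chromosome 4, Zfp979 and Zfp982, were not called. Zfp979 had 702 and 614 CPM in control SCNT, 676 and 466 in SCNT-Kdm3a and 441 and 431 in SCNT-Kdm4d (adjusted p = 0.65 and 0.13), and Zfp982 had 421 and 432, 411 and 359.8, and 291 and 314 CPM (adjusted p = 0.87 and 0.45). Over the 16 members the log2 differences ran from -0.75 to 3.48 with Kdm3a and from -0.68 to 3.32 with Kdm4d.

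**Figure D3:**
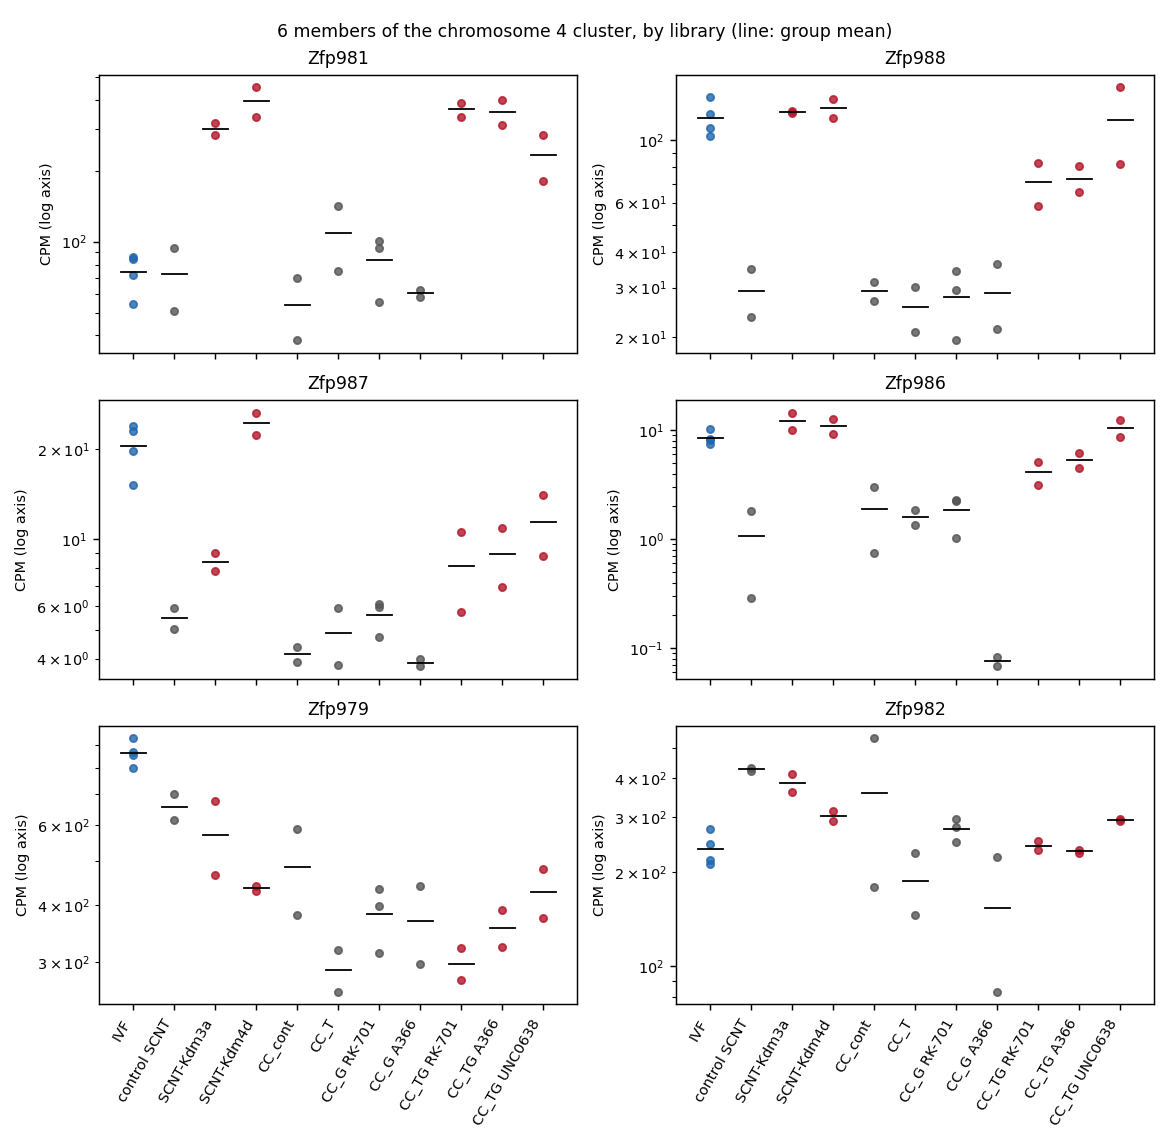
CPM on a log axis of 6 chromosome 4 members in each library (points) with the group mean (line), for 11 groups. Zfp981 stands above IVF in every Kdm3a, Kdm4d and CC_TG library, and Zfp979 is highest in IVF.

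TSA alone called 0 members in either direction against CC_cont with edgeR, and 0.159% of all genes higher and 0.159% lower. DESeq2 called 2, both lower, 19 members and 3322 of all genes had an unadjusted p under 0.05, and without CC_cont replicate 2 edgeR called 10, all lower. RK-701 alone called 1 higher and 0 lower (all genes 1.73% and 1.61%), and A366 alone 0 higher and 1 lower (0.0814% and 0.0388%). Zfp934, the member raised by RK-701, had 23.3, 35.0 and 27.0 CPM against 16.1 and 8.56 in CC_cont (log2 difference 1.19 ± 0.30, adjusted p = 0.018). The call ended without CC_cont replicate 2 or RK-701 replicate 2, and without CC_cont replicate 1 RK-701 called 15 members, all higher. Zfp986, the member lower with A366, had 2 reads over the A366 libraries and 64 over the CC_cont libraries, a ratio of 29.1 with an exact 95% interval of 7.73 to 245 that covers counting error only. The call ended without CC_cont replicate 1 or A366 replicate 1 or A366 replicate 2, and without CC_cont replicate 2 A366 called 11 members, all lower.

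TSA combined with a G9a inhibitor raised members on chromosomes 4 and 7, scattered members and, with UNC0638 only, Zfp983 on chromosome 17. Against CC_cont, TSA with RK-701 called 10 higher and 2 lower (all genes 3.68% and 2.51%), TSA with A366 8 and 0 (3.06% and 2.92%), and TSA with UNC0638 10 and 0 (3.68% and 2.54%). The higher calls are 17.9%, 14.3% and 17.9% of the members. The median member differed by 0.42, 0.32 and 0.46 on the log2 scale and the median of all genes by -0.11, -0.12 and -0.08. The 3 comparisons share the CC_cont libraries. Without CC_cont replicate 2 TSA with RK-701 called 5 higher and 6 lower. Two-cell markers summed to 408 to 631 TPM in CC_cont, 493 to 499 with RK-701, 425 to 459 with A366 and 1284 to 1417 with UNC0638, and oocyte markers to 1201 to 1212, 845 to 941, 1200.0 to 1479 and 1019 to 1358. Their part in these differences was not tested.

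Zfp977 had 38.9 and 27.0 CPM in CC_cont, 128 and 148 with TSA and RK-701, 157 and 134 with TSA and A366 and 179 and 108 with TSA and UNC0638. All 6 treated libraries stood above both CC_cont libraries, with log2 differences of 2.06 ± 0.28 (adjusted p = 6.3e-05), 2.14 ± 0.28 (4.3e-05) and 2.12 ± 0.28 (2.8e-05). Zfp981 had 69.9 and 38.1 CPM in CC_cont, 339 and 389.7 with RK-701, 400.0 and 313 with A366 and 284 and 181 with UNC0638 (log2 difference 2.75 ± 0.34, 2.72 ± 0.34 and 2.10 ± 0.34). Zfp934 had 16.1 and 8.56 CPM in CC_cont and 58.0 and 73.0, 114 and 66.7, and 64.3 and 38.9 in the same order (log2 difference 2.39 ± 0.33, 2.86 ± 0.33 and 2.05 ± 0.32). The calls of Zfp977, Zfp981 and Zfp934 held in all 3 comparisons whichever library of the compared groups was left out.

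Zfp936 and Zfp988 were called with all 3 inhibitors too. Zfp936 had 156 and 48.2 CPM in CC_cont and 283 and 317, 307 and 339, and 250.2 and 259 with RK-701, A366 and UNC0638 (log2 difference 1.55 ± 0.35, 1.66 ± 0.35 and 1.31 ± 0.34), and each call ended without CC_cont replicate 2. Zfp988 had 31.4 and 26.9 CPM in CC_cont and 58.6 and 82.8, 65.2 and 80.5, and 154 and 81.8, and its call with UNC0638 held without any 1 library, whereas those with RK-701 and A366 ended without CC_cont replicate 2. Zfp949, Zfp960 and Zfp974 were called with RK-701 (log2 difference 1.21, 1.84 and 1.87) and with A366 (1.17, 1.45 and 2.30). The calls of Zfp949 ended without CC_cont replicate 1 and those of Zfp960 without its replicate 2, and that of Zfp974 ended without CC_cont replicate 1 with RK-701 and held with A366. With UNC0638 they differed by 0.77, 0.98 and 1.14 and were not called. Zfp986, Zfp987 and Zfp983 were called with UNC0638 (2.41 ± 0.57, 1.46 ± 0.37 and 1.599 ± 0.51), and Zfp989 and Zfp938 with RK-701 (3.31 ± 0.76 and 1.48 ± 0.44) and UNC0638 (3.00 ± 0.76 and 1.53 ± 0.44). All 7 of these calls ended without CC_cont replicate 2, those of Zfp987 and Zfp983 also without its replicate 1, and that of Zfp983 without any 1 of its 4 libraries. Zfp989 had only 9 reads over the CC_cont libraries and 80 over those of TSA and RK-701. The ratio was 9.50 with an exact 95% interval of 4.76 to 21.5 that covers counting error only.

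The members lower with TSA and RK-701 were Zfp946 and Zfp940. Zfp946, higher in untreated SCNT than in IVF, had 110.3 and 105 CPM in CC_cont and 48.1 and 44.0 with TSA and RK-701 (log2 difference -1.23 ± 0.23, adjusted p = 0.0012). It had 72.1 and 58.1 CPM with TSA and A366 and 73.6 and 65.7 with TSA and UNC0638, all below CC_cont but not called. Zfp940 had 6.68 and 3.91 CPM in CC_cont and 0.386 and 1.19 with TSA and RK-701 (log2 difference -2.73 ± 0.75), and its call ended without CC_cont replicate 1 or TSA and RK-701 replicate 1.

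The inhibitors differed from each other without TSA. At the same dose and time A366 called 11 members lower and 0 higher than RK-701, or 19.6% lower, against 4.1% and 3.97% of all genes. The median member differed by -0.50 on the log2 scale and the median of all genes by -0.03. Zfp977 had 24.8 and 15.7 CPM with A366 and 44.5, 70.9 and 74.2 with RK-701 (log2 difference -1.64 ± 0.26, adjusted p = 1.3e-04). Zfp951 had 34.2 and 41.9 CPM with A366 and 150.1, 128 and 151 with RK-701 (log2 difference -1.91 ± 0.31, adjusted p = 1.3e-04). Zfp986 had 2 reads over the A366 libraries and 75 over the RK-701 libraries, a ratio of 25.1 with an exact 95% interval of 6.70 to 211. For these 3 genes the groups did not overlap and the calls held whichever library was left out.

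The others were Zfp961, Zfp984, Zfp960, Zfp958, Zfp932, Zfp975, Zfp936 and Zfp950, at log2 differences from -1.01 to -1.92, and each call ended without at least 1 library. Zfp932, a known repressor of endogenous retroviruses, had 86.8 and 49.5 CPM with A366 and 154, 150.3 and 124 with RK-701 (log2 difference -1.07 ± 0.28, adjusted p = 0.011), and its call ended without A366 replicate 2. This was the 1 call of Zfp932 in the 21 comparisons. Oocyte markers summed to 1117 to 1562 TPM with A366 and 2269 to 2975 with RK-701, and two-cell markers to 486 to 620 and 720 to 1046. Their part in the difference was not tested.

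With TSA, edgeR called 0 members for each of the 3 pairs of inhibitors, and DESeq2 called 0 as well. Of all genes, 0% were called higher and 0% lower for A366 over RK-701, 0.671% and 0.275% for UNC0638 over RK-701, and 0.733% and 0.116% for UNC0638 over A366. Members with an unadjusted p under 0.05 numbered 1, 12 and 9 of 56, and all genes 998, 2970 and 2606 of 25794. For Zfp977 the difference was 0.08 for A366 over RK-701 on the log2 scale (95% interval -0.47 to 0.62), 0.06 for UNC0638 over RK-701 (-0.49 to 0.60) and -0.02 for UNC0638 over A366 (-0.57 to 0.53). The interval of A366 over RK-701 does not reach the -1.64 seen without TSA. For Zfp981 the intervals were -0.69 to 0.63, -1.31 to 0.01 and -1.28 to 0.04, and for Zfp960 they were -1.14 to 0.36, -1.62 to -0.10 and -1.22 to 0.28.

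**Figure D4:**
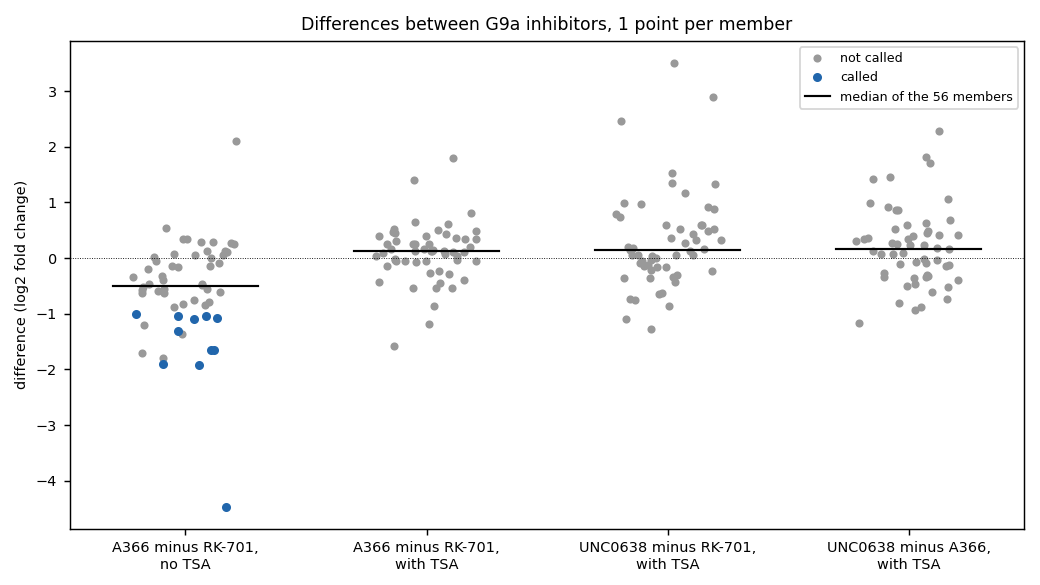
Each point is the log2 fold change of 1 of the 56 members between 2 inhibitors, grey where not called and blue where called, with the median as a line. Without TSA the median is -0.50 and 11 members are called lower with A366, and with TSA the medians are 0.13, 0.14 and 0.17 and 0 members are called.

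The interaction of TSA with an inhibitor measures how far the joint effect departs from the sum of the single effects on the log2 scale, and was called on the adjusted p alone. With RK-701 3 members departed upward and 0 downward (all genes 1.54% and 0.764%), and with A366 9 and 0 (1.31% and 0.566%). Zfp977 departed by 1.84 ± 0.37 (adjusted p = 0.0097) with RK-701 and by 3.56 ± 0.40 (adjusted p = 4.3e-05) with A366. It had 20.2 and 20.2 CPM with TSA alone and 24.8 and 15.7 with A366 alone, below both CC_cont libraries, and 157 and 134 with both agents. Zfp958 departed by 1.603 ± 0.40 with RK-701 and 2.65 ± 0.43 with A366. The A366 calls of Zfp977 and Zfp958 held whichever library was left out, and each RK-701 call ended without at least 2 of its 9 libraries. Without CC_cont replicate 1, 1 member departed upward and 2 downward with RK-701.

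The Kdm3a, Kdm4d and CC_TG groups were also compared with IVF. SCNT-Kdm3a had 11 higher and 4 lower (all genes 6.59% and 6.21%), and SCNT-Kdm4d 10 and 1 (4.85% and 4.46%). TSA with RK-701 had 9 and 6 (6.27% and 5.95%), with A366 9 and 4 (5.52% and 5.37%), and with UNC0638 9 and 3 (5.54% and 4.3%). For TSA with RK-701 the order turned to 9 higher and 10 lower in the compared libraries alone and with no filter on low counts, and to 5 and 6 with the replicate number as a block and without IVF replicate 4. The IVF libraries are shared by these comparisons. Zfp981 was higher than IVF in all 5, by 2.02, 2.41, 2.29, 2.26 and 1.64 on the log2 scale in this order. Zfp954 had 30.5, 35.8, 46.1 and 29.9 CPM in IVF and 5.00 to 15.8 in these 10 libraries and was lower in all 5, although the Kdm4d call (adjusted p = 0.049) ended without any 1 of its 6 libraries. Zfp979 was lower with all 3 combined treatments (log2 difference -1.53, -1.27 and -1.01).

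How many members were ever called is given by cluster, and the share of all genes ever called was not worked out. In the 21 comparisons 21 of the 56 members were not called, among them all 4 of chromosome 2, all 3 of chromosome 8, 6 of 10 on chromosome 17, 4 of 16 on chromosome 4 and 4 of the 19 scattered members. Zfp970, Zfp971 and Zfp972 on chromosome 2 averaged 9.96, 13.1 and 6.72 reads per library. On chromosome 7 each of the 4 was called at least once. The median log2 difference of the chromosome 7 members was 2.05 and 2.09 with Kdm3a and Kdm4d and 1.59, 1.38 and 1.32 with the combined treatments, and that of the chromosome 17 members -0.21 and -0.36, and 0.04, 0.26 and 0.47. Zfp942, the most abundant on chromosome 17, had 184 to 203 CPM in IVF and 430.4 and 336 in control SCNT. It had 203 to 267 CPM in the mRNA groups. It was not called, its differences staying below a fold of 2. Against IVF they were 0.97 in control SCNT (edgeR adjusted p = 4.5e-05) and 0.70 in CC_cont (0.0017). Against control SCNT they were -0.63 with Kdm3a (0.040) and -0.89 with Kdm4d (0.0057). With the combined treatments they were -0.76, -0.66 and -0.33 (0.0087, 0.023 and 0.30). Zfp931 on chromosome 2 lay at 2.61 to 12.5 CPM over all libraries and Zfp930 on chromosome 8 at 55.5 to 178. Zfp930 was higher below a fold of 2 with Kdm3a and Kdm4d (log2 difference 0.82 and 0.87, edgeR adjusted p = 0.024 and 0.0205). With the combined treatments it was higher by 0.81, 0.95 and 0.84 (adjusted p = 0.018, 0.0060 and 0.015).

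**Figure D5:**
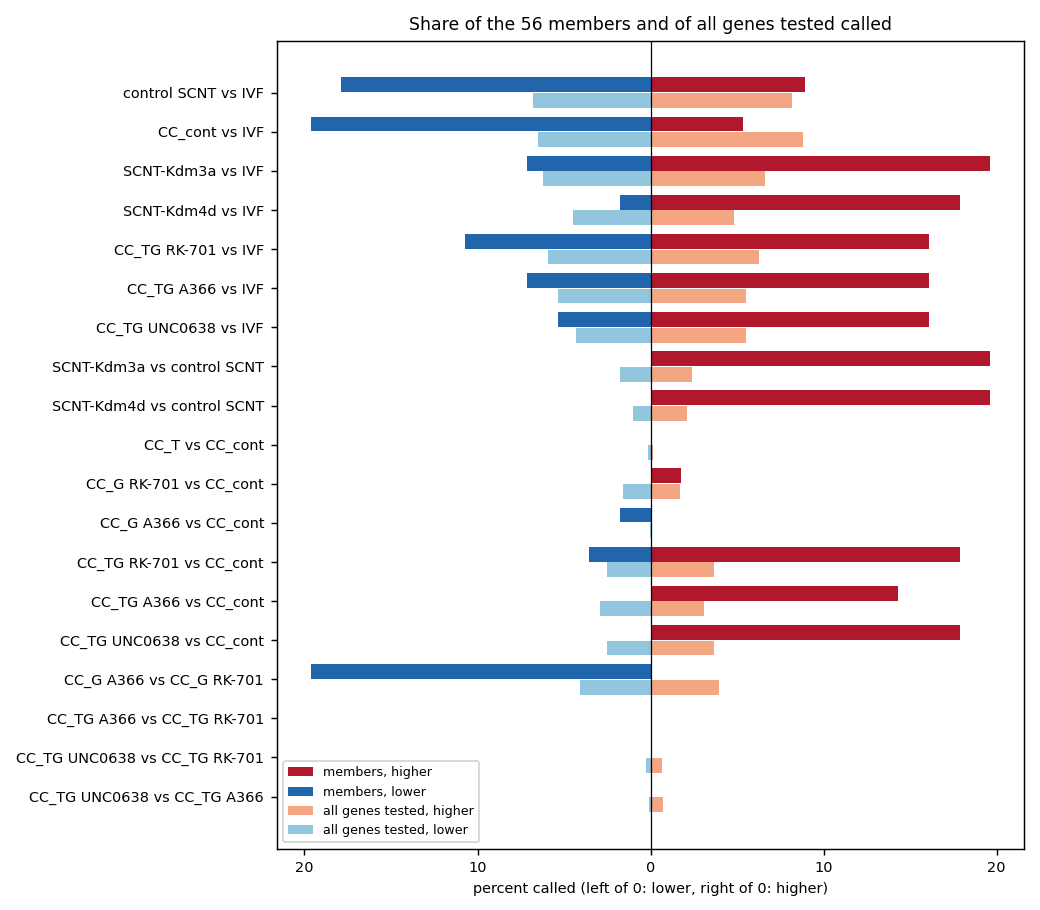
Bars give the percent of the 56 members and of all 25794 genes tested that were called higher (right of 0) or lower (left of 0) in each comparison. The members' bars reach 19.6% on the higher side with Kdm3a and Kdm4d and 19.6% on the lower side in CC_cont against IVF and in A366 against RK-701.

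Other genes of the family and its partners were read beside the members. Of 287 other Zfp genes tested, 12 were called higher and 3 lower with Kdm3a and 13 and 6 with Kdm4d, with median log2 differences of 0.03 and 0.06. In the combined treatments (RK-701, A366, UNC0638), 18, 25 and 32 of them were higher and 5, 4 and 3 lower. Of all genes, 2.38% and 2.11% were called higher with Kdm3a and Kdm4d and 1.78% and 1.04% lower. With the combined treatments 3.68%, 3.06% and 3.68% of all genes were higher and 2.51%, 2.92% and 2.54% lower. Inside the clusters lay 25 tested protein-coding genes that are no members. Of these, 2 and 3 rose with Kdm3a and Kdm4d, 4, 5 and 4 rose with the combined treatments, and 0 fell in these 5 comparisons. Zfp534 was among them, at log2 differences of 1.77 with Kdm4d and 1.00, 1.11 and 1.26 with TSA and RK-701, A366 and UNC0638.

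Among 12 cofactors of KRAB zinc finger proteins, 0 were called with either mRNA. Smarcad1, a chromatin remodeller, was called with TSA and RK-701 (log2 difference 1.04) and with TSA and A366 (1.03). Trim28 lay at a mean of 137 TPM in IVF and at 151 to 259 TPM in the SCNT groups. Of 4 KRAB zinc finger genes with known targets, Zfp809, which silences retroviruses, was higher than in CC_cont in the RK-701 libraries without TSA (1.05) and in those of TSA and UNC0638 (1.62), and the other 3 were called in no comparison.

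The study chose a list of 879 reprogramming-resistant genes partly on these libraries. Its genes rose up to the two-cell stage of IVF embryos in an earlier dataset and were lower in SCNT than in IVF embryos here. On it were 8 members, namely Zfp987, Zfp989, Zfp988, Zfp984, Zfp977, Zfp936, Zfp934 and Zfp954. All 8 were called lower in CC_cont than in IVF, which is not independent evidence of their direction. Zfp954 and Zfp984 were called in 0 of the 8 comparisons of a treated group with its untreated control. Zfp954 had 8.33 and 4.70 CPM in control SCNT, 7.44 and 15.8 in SCNT-Kdm3a and 15.5 and 15.7 in SCNT-Kdm4d. Zfp984 had 48.5 and 59.6 CPM, 113 and 95.7, and 107 and 101 in the same groups (log2 difference 0.95 ± 0.27 and 0.94 ± 0.27, adjusted p = 0.038 and 0.044), below a fold of 2.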

How the data were processed

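Read counts per gene were deposited by the authors as 1 table of whole-number counts, not normalized. Per the labels and methods, Trimmomatic was run by the authors on paired 150-base reads, STAR placed them on mm10 (unique alignments kept), and pairs were counted over exons by featureCounts 1.6.2, unstranded, against genes and transposable element copies together, so a pair over more than 1 feature was not counted. Here, all autosomal genes averaging 1 read or more (25794) were fitted in edgeR 4.0.16 (R 4.3.3) by the quasi-likelihood test with TMM factors (0.883 to 1.16) over all 25 libraries and 11 groups, which share 1 estimate of the spread. P-values were adjusted by Benjamini-Hochberg over all genes tested. CPM (TMM-scaled) and TPM were computed here from the counts. The fit was tested on simulated data. Groups came from the sample labels.

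Members and lists were chosen with earlier results of these data known. Named members were those called in any of the 8 treated against untreated comparisons (at most 20), those called alike in both untreated SCNT groups against IVF, the 5 most abundant, the most abundant of each cluster, those on the list of the study, up to 10 called between inhibitors or in an interaction, and Zfp932. Zfp976, Zfp985, Zfp950, Zfp945 and Zfp992 were named after their values were seen. Promoters came from RefSeq (47 of 56 members matched) and overlaps from bedtools 2.31.1. Protein sequences were not analysed here. Alternatives were DESeq2 1.42.0, RLE factors, other filters, the compared libraries alone, the other untreated control, the replicate number as a block, other joining distances and leaving out each library. Library depth was 6662727 to 21188688 reads on genes, and intervals on reads cover counting error only.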

Additional observations from a re-analysis of the deposited data

Results flagged for a closer look

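For the members below, the effect of a G9a inhibitor differed with and without TSA by edgeR's interaction test. With A366 the departures on the log2 scale were 3.56 for Zfp977, 2.65 for Zfp958, 6.25 for Zfp986, 2.18 for Zfp984, 2.15 for Zfp951, 5.46 for Zfp993, 2.17 for Zfp960, 1.85 for Zfp936 and 1.77 for Zfp978. With RK-701 they were 1.84 for Zfp977, 1.603 for Zfp958 and 1.54 for Zfp988. The departure of Zfp986 rests on 2 reads over the A366-alone libraries against 152 over the libraries with TSA and A366. That of Zfp993 rests on few reads too, with 63 and 9 in CC_cont and 7 and 1 with TSA alone. It had 4 and 6 reads with A366 alone and 20 and 53 with TSA and A366. Of the 12 results, those of Zfp977 and Zfp958 with A366 held whichever library was left out. Among the 4 IVF libraries, 2 of 56 members had a library set apart from the others by Dixon's criterion at the 95% level, which chance gives for about 1 in 20 groups. These were Zfp945 and Zfp992. Zfp945 had 2 reads in IVF replicate 2 and 0 in the other IVF libraries, so its outcome was fixed by the zeros and sets no library apart.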

How the results depend on the processing

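Total counts of called members under the alternatives not given here stayed within 1.5 times the reported ones, but the balance of higher and lower calls turned in 4 comparisons. TSA with RK-701 against IVF (9 higher, 6 lower) gave 9 and 10 in the compared libraries alone and with no filter, and 5 and 6 with the replicate block and without IVF replicate 4. CC_cont against IVF (3 and 11) gave 9 and 8 without CC_cont replicate 2, TSA with RK-701 against CC_cont (10 and 2) gave 5 and 6 without CC_cont replicate 2, and the interaction with RK-701 (3 and 0) gave 1 and 2 without CC_cont replicate 1. For TSA alone (0 called) DESeq2 gave 2, no filter on low counts 3 and the other untreated control 3. For RK-701 alone (1) the compared libraries alone gave 0 and no filter 3. For A366 alone (1) the compared libraries alone gave 0, DESeq2 4, no filter 3, the other control 3 and the replicate block 0. TSA with A366 (8) had 13 by DESeq2, and TSA with UNC0638 (10) had 5 in the compared libraries alone. UNC0638 against RK-701 with TSA (0) had 1 in the compared libraries alone and 2 with no filter. The interaction with RK-701 (3) had 1 in the compared libraries alone, 5 by DESeq2, 8 with no filter and 1 with the replicate block, and that with A366 (9) had 2, 16 by DESeq2 and 17 with no filter. A366 against RK-701 (11) had 7 with the replicate block. The cause of these changes was not tested.

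Replicate numbers did not pair the libraries, since same-numbered libraries of different groups had a median correlation of -0.0152 (range -0.537 to 0.322). The block is therefore given only as an alternative.

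Leaving out 1 library gave 11 to 17 calls for control SCNT and 14 to 20 for CC_cont against IVF. Against IVF it gave 10 to 16 (Kdm3a), 8 to 11 (Kdm4d), 7 to 13 (TSA and RK-701, 7 without its replicate 1), 6 to 13 (TSA and A366, 6 without its replicate 1) and 6 to 12 (TSA and UNC0638, 6 without its replicate 1). Against control SCNT it gave 5 to 13 (Kdm3a, 5 without control SCNT replicate 1 and 7 without SCNT-Kdm3a replicate 1) and 4 to 15 (Kdm4d, 4 without control SCNT replicate 1 and 7 without SCNT-Kdm4d replicate 2). Against CC_cont it gave 0 to 10 for TSA (10 without CC_cont replicate 2), 0 to 15 for RK-701 (15 without CC_cont replicate 1, 0 without CC_cont or RK-701 replicate 2) and 0 to 11 for A366 (11 without CC_cont replicate 2, 0 without CC_cont replicate 1 or A366 replicate 2). It gave 8 to 17 for TSA with RK-701, 8 to 17 for TSA with A366 (17 without CC_cont replicate 1) and 4 to 20 for TSA with UNC0638 (20 without CC_cont replicate 1, 5 without its replicate 2, 4 without UNC0638 replicate 1). It gave 6 to 10 for A366 against RK-701 (6 without A366 replicate 2) and 0 for the 3 pairs with TSA. The interactions gave 0 to 8 (RK-701, 8 without CC_cont replicate 2, 0 without CC_T replicate 1 or TSA and RK-701 replicate 2) and 2 to 20 (A366, 20 without CC_cont replicate 2, 2 without CC_cont replicate 1 or A366 replicate 2). A library left alone in its group was assumed to vary like the other groups. Joining members up to 1000000 or 5000000 bases apart put 37 and 39 members in clusters.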
